A study of Mus musculus with 8 samples.

Results

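The interferon-inducible GTPases are proteins that a cell makes in quantity after an interferon signal and that attack the membranes around intracellular microbes. Here 7 of their genes, *Gbp2*, *Gbp3*, *Gbp6*, *Irgm1*, *Igtp*, *Iigp1* and *Ifi47*, were followed in the mouse hippocampus with age. They were chosen by gene name, and every probe whose accession belongs to 1 of them was taken, which gave 10 probes and 19 spots among the 39429 probes and 43020 spots of an array. The 7 genes stand among 19751 genes that could be named on the array. RNA came from the hippocampus of C57BL/6J wild type mice kept in groups in cages, and the study describes no treatment of them. The group 3M held 4 samples from mice 3 months of age and the group 29M held 4 samples from mice 29 months of age. Each sample was labelled with Cy3 and hybridised to 1 array, and an array is named here by its group and replicate number, as 3M-1. The study bought its old mice at an advanced age and kept them on until the oldest stage. The labels do not say that the 4 samples of a group came from separate mice, and the p-values measure only the spread between these samples.

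The proteins fall into 2 families. Guanylate-binding proteins (GBPs, here *Gbp2*, *Gbp3* and *Gbp6*) are large GTPases that assemble into coats on pathogen vacuoles and on bacteria, and they promote release of bacterial lipopolysaccharide to caspase-11. Immunity-related GTPases (IRGs) are smaller. Their regulatory members, of which *Irgm1* and *Igtp* (also called Irgm3) are measured here, sit on the host's own membranes and hold the effector members inactive there, while the effectors, of which *Iigp1* (Irga6) and *Ifi47* (Irgd) are measured here, gather on vacuoles that lack the regulators. Interferon-gamma induces both families through transcription factors that bind the gamma-activated site (GAS) and through others, such as IRF1, that bind the interferon-stimulated response element (ISRE). In the resting brain these genes are kept at low levels, and microglia, astrocytes and endothelial cells are among the cells that raise them on interferon.

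The promoters of 5 of the 7 genes were in the RefSeq table used (build GRCm38.p6), with 6 promoters in all because *Gbp3* has a pair of starts. The 100 bases before the start are shown to make visible the elements through which interferon acts on these genes. Capitals mark each match, on either strand, to the ISRE core GAAANNGAAA or to the GAS core TTCNNNGAA, and each sequence is written on the strand of its gene.
Gbp2, chr3:142620563-142620662, plus strand: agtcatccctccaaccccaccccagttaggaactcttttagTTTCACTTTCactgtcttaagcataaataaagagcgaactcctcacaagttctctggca
Gbp3, first start, chr3:142559944-142560043, plus strand: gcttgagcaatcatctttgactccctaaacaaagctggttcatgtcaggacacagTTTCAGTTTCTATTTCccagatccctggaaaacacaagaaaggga
Irgm1, chr11:48871421-48871520, minus strand: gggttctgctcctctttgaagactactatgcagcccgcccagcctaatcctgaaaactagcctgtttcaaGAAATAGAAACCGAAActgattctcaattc
Igtp, chr11:58199456-58199555, plus strand: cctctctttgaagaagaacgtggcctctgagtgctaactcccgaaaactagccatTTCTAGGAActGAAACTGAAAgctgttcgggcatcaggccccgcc
Ifi47, chr11:49076487-49076586, plus strand: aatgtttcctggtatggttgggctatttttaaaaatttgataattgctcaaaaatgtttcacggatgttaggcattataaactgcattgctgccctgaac
The windows searched ran from 250 bases before to 50 bases after the start. The ISRE core was found in 4 of these 5 genes (*Gbp2*, *Gbp3*, *Irgm1* and *Igtp*), against 3.99% of all 27025 genes with a promoter in the table. Matches overlapped each other in *Gbp3* and in *Irgm1*, where a run of GAAA repeats holds a pair of cores. All of these matches lay within the 59 bases before the start. *Igtp* also held the GAS core, from position -45 to -37, and the ISRE core from -34 to -25; both cores occur together in 0.54% of genes and the GAS core in 9.55%. Neither core was present in the windows of *Ifi47* and of the second start of *Gbp3*. These matches describe letters in a window and are not measured binding sites.

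On the arrays, between 76.2% and 85.0% of spots were well above background, no spot was saturated, and 127 to 190 spots per array were set aside as outliers. All 10 probes of the 7 genes were well above background on all 8 arrays. The 10 markers of hippocampal neurons were well above background on every array and the liver gene *Alb* on none, while 4 of the 5 genes listed as absent from brain were above background on all arrays as well. Values are normalized log2 intensities after variance stabilisation, and differences are 29M minus 3M, so that 1 unit is a doubling. A probe was called when its adjusted p in limma was below 0.1 and its log2 change was at least 0.5 (1.41-fold) in size. By this rule 476 of 39408 probes were called higher in 29M and 296 lower, and at least 1 probe was called higher for 357 of 19742 named genes. The median change over all probes was 0.00.

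Array 3M-1 stood apart for these genes and is described before the comparison of ages. It gave the highest value of all 8 arrays for 10 of 10 probes and thus for 7 of 7 genes, while 17% of all tested probes were highest on that array. On the probe with the highest mean for each gene, it exceeded the mean of the other 3 young arrays by 0.84 (*Iigp1*) to 2.35 (*Igtp*) log2 units, which is 1.79-fold to 5.10-fold. Among all probes these excesses lay between the 98.3rd and the 99.8th percentile. Under each of the 4 scalings tried the array remained the highest for every one of the 7 genes, and the excess of *Igtp* ranged from 2.33 to 2.42. Array 3M-1 also had the lowest share of spots above background (76.2%), and it was the only array that the scanner software marked for evaluation; the part of these properties in the GTPase values was not tested.

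**Figure D1:**
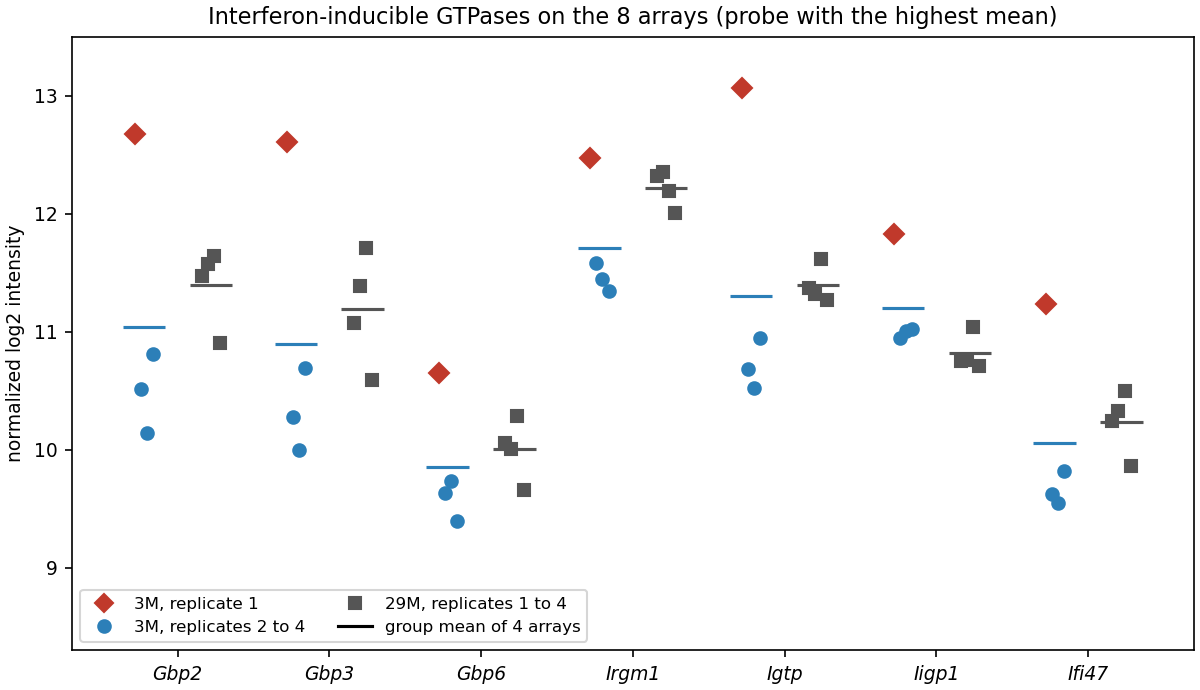
Normalized log2 intensity (vertical axis) of the 7 GTPase genes on the 8 arrays, each gene on its probe with the highest mean, with 1 symbol per array and a horizontal line at the mean of each group of 4 arrays. The red diamond, 3M-1, is the highest point of every gene, and the other 3 young arrays lie below the mean of the old arrays for every gene except *Iigp1*.

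With all 8 arrays, none of the 7 genes and none of the 10 probes was called different between 29M and 3M, where 1.21% of all probes and 1.81% of named genes were called higher. At an unadjusted p below 0.05 in limma there were 2 probes, both of *Irgm1*. In none of the 10 probes did all old arrays lie above all young ones, as they did for 5.52% of probes. The changes of the 7 genes ran from -0.38 (*Iigp1*) to 0.51 (*Irgm1*) with a median of 0.18. This count rests on 3M-1. When that array was left out, 5 of the 7 genes (6 of the 10 probes) were called higher in 29M, namely *Gbp2*, *Gbp6*, *Irgm1*, *Igtp* and *Ifi47*, against 2.95% of named genes and 2.01% of probes in the same fit. The old arrays then lay above the 3 remaining young arrays for 6 of the 10 probes, as for 10.4% of all probes, and the median change of the 7 genes was 0.68. Leaving out any other array gave 0 called genes, and weights for array quality gave 2 (*Gbp6* and *Irgm1*). Nothing in the labels sets 3M-1 aside, so the comparison of all 8 arrays stands as the result and the values without it are given beside each gene.

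*Gbp2*, which binds vacuoles and is a classical marker of the interferon-gamma response, measured 12.68, 10.52, 10.14 and 10.81 on 3M-1 to 3M-4 and 11.47, 11.57, 11.64 and 10.90 on 29M-1 to 29M-4. Array 3M-1 was high by more than 1 unit over every old array, and the other 3 young arrays were below all 4 old ones. The change was 0.36 ± 0.47 (SE, n = 4 arrays per group; 95% interval -0.70 to 1.43) with a limma adjusted p of 0.748. Without 3M-1 it was 0.91 ± 0.21 (limma adjusted p = 0.0489), a 1.88-fold difference.

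*Gbp3*, a close relative of *Gbp2*, shared its highest and lowest young arrays. It measured 12.61, 10.28, 9.998 and 10.69 on the 4 young arrays in order and 11.07, 11.38, 11.71 and 10.59 on the 4 old ones. Here 29M-4 overlapped with the young arrays, since 3M-4 was higher by a little. The change was 0.30 ± 0.51 (95% interval -0.85 to 1.44) with a limma adjusted p of 0.817. Without 3M-1 it was 0.87 ± 0.25, with a limma adjusted p of 0.102 that misses the threshold narrowly.

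*Gbp6*, one of a cluster of near-identical GBPs that form part of the same vacuole coats, had a pair of probes, and which of its copies each probe reads was not checked. The brighter probe (A_55_P2052380) measured 10.65, 9.64, 9.74 and 9.40 on the young arrays and 10.06, 10.01, 10.29 and 9.66 on the old ones. Its groups overlapped also without 3M-1, because 3M-3 was higher than 29M-4, and its change was 0.15 ± 0.25 with all arrays (limma adjusted p = 0.814) and 0.41 ± 0.15 without 3M-1 (limma adjusted p = 0.164). The dimmer probe (A_55_P2052385) measured 9.79, 8.11, 7.68 and 7.89 on the young arrays and 8.94, 8.96, 9.28 and 8.80 on the old ones. On this probe the 4 old arrays sat close together, between 3M-1 and the other young arrays. Its change was 0.63 ± 0.40 (limma adjusted p = 0.465), and without 3M-1 it was 1.10 ± 0.14 (limma adjusted p = 0.00541), the largest of the 10 probes. The call of *Gbp6* without 3M-1 thus rests on the dimmer of its probes.

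*Irgm1*, the regulator that guards endolysosomal and Golgi membranes, was the gene in which 3M-1 exceeded the old arrays by the least. Its brighter probe (A_51_P262171) measured 12.47, 11.58, 11.45 and 11.34 on the young arrays and 12.32, 12.36, 12.20 and 12.002 on the old ones, and the dimmer probe (A_55_P1981479) measured 11.03, 10.18, 9.89 and 10.05 against 10.99, 10.98, 10.90 and 10.59. On both probes the other 3 young arrays were below every old array and 3M-1 was above every old array, by 0.12 and by 0.05. The changes were 0.51 ± 0.22 (95% interval 0.00 to 1.01; limma adjusted p = 0.291) and 0.58 ± 0.23 (95% interval 0.07 to 1.08; limma adjusted p = 0.238). Without 3M-1 they were 0.76 ± 0.11 (limma adjusted p = 0.00874) and 0.82 ± 0.12 (limma adjusted p = 0.0101), so both probes of the gene gave the same answer in either fit.

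*Igtp*, the regulator found on the endoplasmic reticulum and on lipid droplets, showed the largest excess in 3M-1. It measured 13.07, 10.69, 10.52 and 10.94 on the young arrays and 11.37, 11.32, 11.62 and 11.26 on the old ones. Array 3M-1 was higher than the highest old array by 1.45, and the remaining young arrays were below all old ones. The change was 0.09 ± 0.48 (95% interval -0.996 to 1.17; limma adjusted p = 0.949), and without 3M-1 it was 0.68 ± 0.12 (limma adjusted p = 0.0249). The probe of *Igtp* was printed in 10 spots on every array, which shows how well a single array measures it. The SD over the spots of an array was 0.14 to 0.25, with 8 to 10 usable spots. The lowest spot of 3M-1 (12.81) was above the highest spot of any other array (11.79), so the excess was present in each spot.

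**Figure D2:**
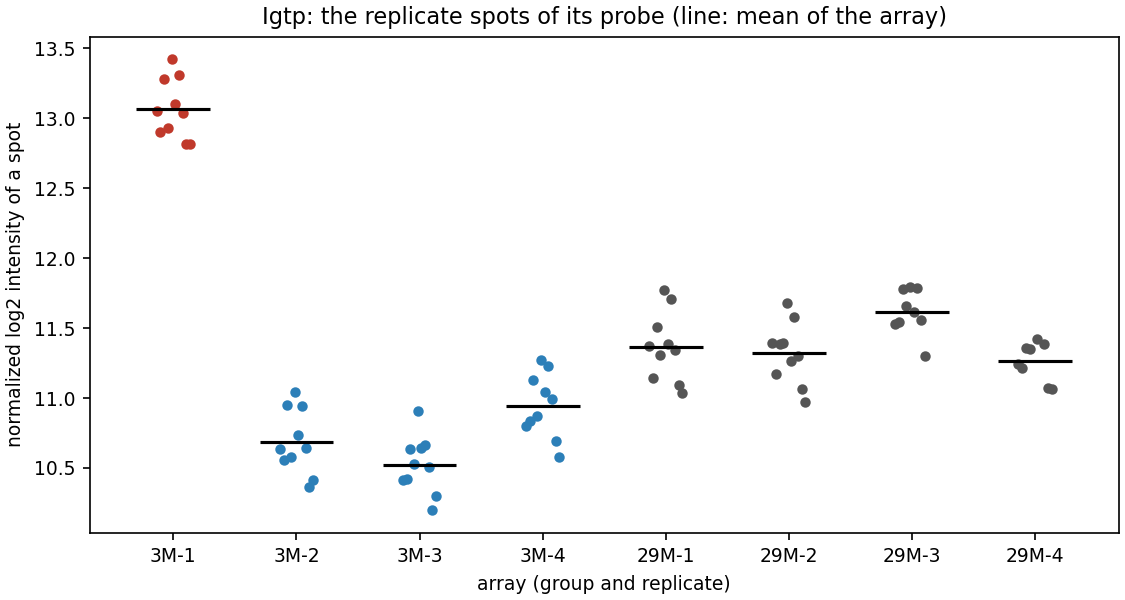
Normalized log2 intensity (vertical axis) of the spots of the *Igtp* probe on each of the 8 arrays (horizontal axis), 1 point per usable spot, with a line at the mean of the array. All 10 spots of 3M-1 lie between 12.81 and 13.42, above every spot of the other 7 arrays, whose highest spot is 11.79.

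*Iigp1*, an effector that loads on vacuoles, behaved differently from the rest. Its brighter probe (A_55_P2410304) measured 11.83, 10.95, 11.003 and 11.02 on the young arrays and 10.75, 10.76, 11.04 and 10.71 on the old ones. Here 3 of the 4 old arrays were below all young arrays, and 29M-3 overlapped with them. The change was -0.38 ± 0.19 (95% interval -0.81 to 0.04; limma adjusted p = 0.341), and without 3M-1 it was -0.17 ± 0.10 (95% interval -0.40 to 0.05; limma adjusted p = 0.353). The dimmer probe (A_55_P1990633) measured 9.28, 7.56, 7.22 and 7.63 against 7.64, 7.77, 7.65 and 7.41, with the groups overlapping in either fit. Its change was -0.31 ± 0.38 (limma adjusted p = 0.732) and without 3M-1 it was 0.15 ± 0.12 (limma adjusted p = 0.554), so this probe changed sign and neither sign passed the test. *Iigp1* has near-identical copies whose signal could not be separated here.

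*Ifi47*, the other effector, measured 11.24, 9.62, 9.54 and 9.82 on the young arrays and 10.24, 10.33, 10.50 and 9.86 on the old ones. Array 3M-1 was high, and the other young arrays were below all old ones, though 29M-4 was above 3M-4 by only a little. The change was 0.18 ± 0.34 (95% interval -0.59 to 0.94; limma adjusted p = 0.841), and without 3M-1 it was 0.57 ± 0.15 (limma adjusted p = 0.0733).

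**Figure D3:**
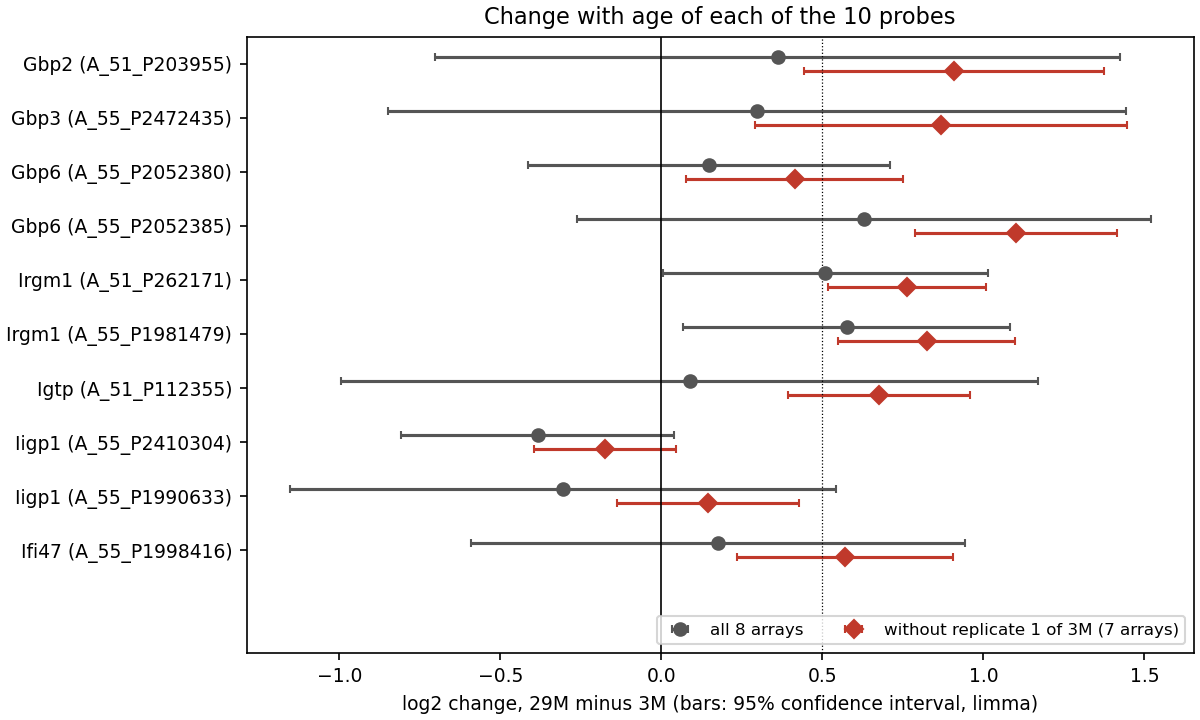
Log2 change from 3M to 29M (horizontal axis) for each of the 10 probes, with 95% confidence intervals from limma, for all 8 arrays (grey circles) and without 3M-1 (red diamonds); the dotted line is the threshold of 0.5. With all arrays the interval includes 0 for all probes except the 2 of *Irgm1*, whose adjusted p values did not pass, and without 3M-1 it lies above 0 for all except the 2 of *Iigp1*.

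The arrays came from 3 slides, each of which held both ages, and differences within a slide were taken on the probe with the highest mean. On slide 1, which held 3M-1, 29M-3 and 29M-4, 0 of the 7 genes were higher in the old samples, with differences from -1.63 (*Igtp*) to -0.37 (*Irgm1*). On slide 2, which held 3M-2 and 29M-2, 6 of 7 genes were higher in the old sample, with differences from -0.19 (*Iigp1*) to 1.11 (*Gbp3*) and a median of 0.71. On slide 3, which held 3M-3, 3M-4 and 29M-1, 6 of 7 genes were also higher in the old sample, with differences from -0.26 (*Iigp1*) to 0.99 (*Gbp2*) and a median of 0.63. For 6 of the 7 genes the direction therefore did not hold within all slides and split between the slide with 3M-1 and the others. *Iigp1* on its brighter probe was lower in the old samples on all 3 slides (-0.95 on slide 1). Its dimmer probe split like the other genes, at -1.75, 0.21 and 0.21 on slides 1, 2 and 3. With slide as a fixed block in the fit, 0 of 7 genes were called.

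**Figure D4:**
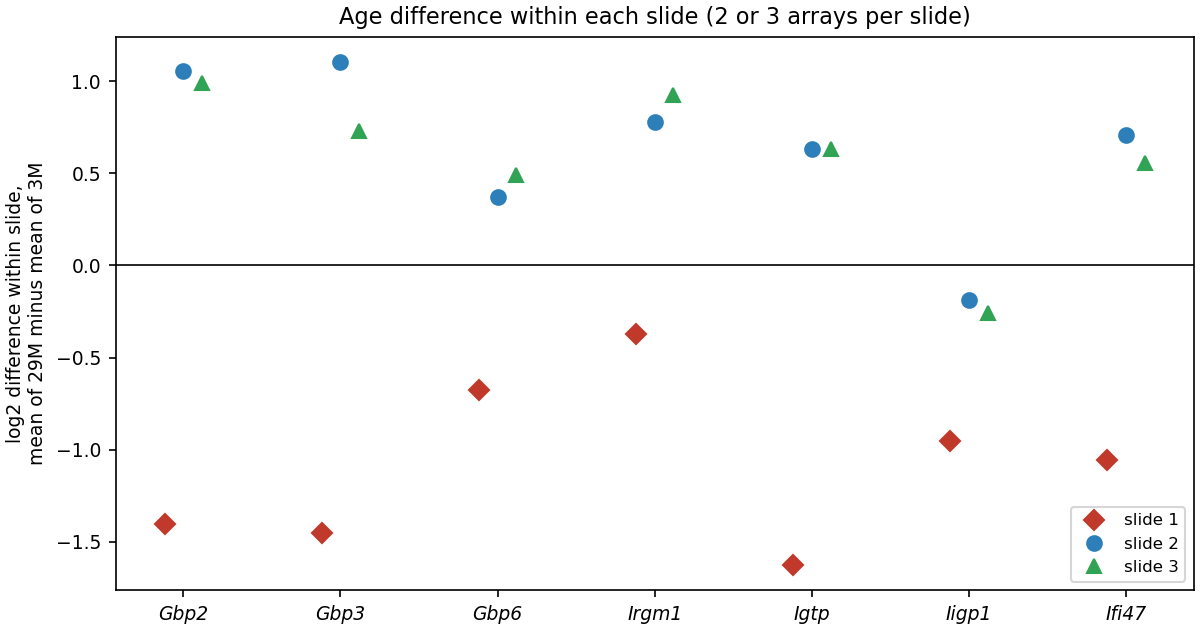
Difference between the mean of the 29M arrays and the mean of the 3M arrays of the same slide (vertical axis, log2) for the 7 genes, with 1 symbol per slide and 2 or 3 arrays behind each symbol. All points of slide 1, which held 3M-1, lie below 0, and on slides 2 and 3 every gene except *Iigp1* lies above 0. Each gene is drawn on its probe with the highest mean, and the dimmer probe of *Iigp1* is not drawn.

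Among the old arrays the 7 genes largely shared their highest and their lowest array. Array 29M-3 was the highest old array in 6 of 7 genes and 29M-4 the lowest in 7 of 7. Both were on slide 1, and the share of all probes with this order was not counted. The lowest young array was 3M-3 in 4 genes, 3M-4 in 2 and 3M-2 in 1. Averaged over the 7 genes, the deviation from the mean of each gene was 1.13 on 3M-1 and between -0.61 and -0.38 on the other young arrays, and it ran from -0.24 (29M-4) to 0.33 (29M-3) on the old ones. On 3M-1 the mean deviation was 1.25 for the 3 GBPs and 1.03 for the 4 IRGs.

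Of 20 further GTPases listed as interferon-inducible or as relatives, 16 were on the array, and none was called higher or lower in 29M. Not all of them are known to be induced by interferon. Among them, *Gm5431* alone had an unadjusted p below 0.05 in limma. Their median change was 0.07. Array 3M-1 was the highest array for 10 of the 16. *Gbp4*, a GBP of the same cluster as *Gbp6*, measured 12.56 on 3M-1, 8.52 to 9.85 on the other young arrays and 9.03 to 9.70 on the old ones, an excess of 3.46 or 11.01-fold. *Irgm2*, the remaining IRGM regulator, measured 12.62 on 3M-1, 10.36 to 10.77 on the other young arrays and 10.93 to 11.34 on the old ones. *Irgq*, a relative that interferon is not known to induce, was not raised on 3M-1, with 12.74 against 12.83 to 13.23 on the other young arrays. Without 3M-1, 4 of the 16 were called higher in 29M (*Gbp8*, *Gm4951*, *Irgm2* and *Tgtp2*), against 2.95% of named genes. Their changes were 0.50 to 0.97. Of these, *Gbp8* was near the floor, well above background on only 1 young array and 3 old ones. *Tgtp1* and *Tgtp2* are near-identical and their probes may share signal.

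Upstream of these genes, 0 of 14 measured interferon ligands, receptors and receptor kinases were called, in either fit. *Ifng*, the gene of interferon-gamma, measured 7.44 on 3M-1, 6.52 to 6.92 on the other young arrays and 6.38 to 6.49 on the old ones. It was highest on 3M-1 and its change was -0.45 ± 0.18 (limma adjusted p = 0.244). Every old array lay below every young one, and the share of all probes with that order was not counted. Without 3M-1 the change was -0.26 ± 0.11 (limma adjusted p = 0.217). *Ifnb1*, the gene of interferon-beta, was not well above background on any array.

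Among 18 transcription factors and inhibitors of interferon signalling, 4 were called higher in 29M with all arrays and none lower. *Usp18*, an interferon-induced inhibitor of the type I receptor, measured 10.06, 9.46, 9.13 and 9.02 on the young arrays and 10.88, 10.75, 10.63 and 10.60 on the old ones, a change of 1.30 ± 0.20 (limma adjusted p = 0.0191). *Socs3*, an inhibitor of JAK kinases, rose by 1.16, *Irf7*, a factor of the type I response, by 0.62, and *Irf8*, a factor of microglia and other myeloid cells, by 0.59. For all 4 of these genes the groups did not overlap and 3M-1 lay below every old array, whereas it lay above every old array for the 7 GTPases. These 4 were named because they were called with all arrays, and a high 3M-1 works against a call. The contrast thus follows in part from that choice. Among the other GTPases, *Gm5431* had separate groups as well, with 3M-1 at 8.69 and the lowest old array at 8.79 on its brighter probe. Over all probes, 5.52% had every old array above every young one. *Irf1* measured 11.88 to 12.81 on the young and 12.44 to 12.52 on the old arrays and did not pass the test. Array 3M-1 was its highest, as it was for *Nlrc5* (9.11 against at most 8.67 in 29M) and *Batf2* (9.26 against at most 8.42). These were 3 of the 18 regulators. *Irf2* went far in the other direction on 3M-1. It measured 9.77 there, 11.29 to 11.78 on the other young arrays and 10.83 to 11.49 on the old ones. The median excess of 3M-1 over the other young arrays was 0.22 for the 18 genes. Without 3M-1, 6 of the 18 were called higher, *Irf5* and *Nlrc5* being added. Of all named genes, 1.81% were called higher with all arrays and 2.95% without 3M-1.

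**Figure D5:**
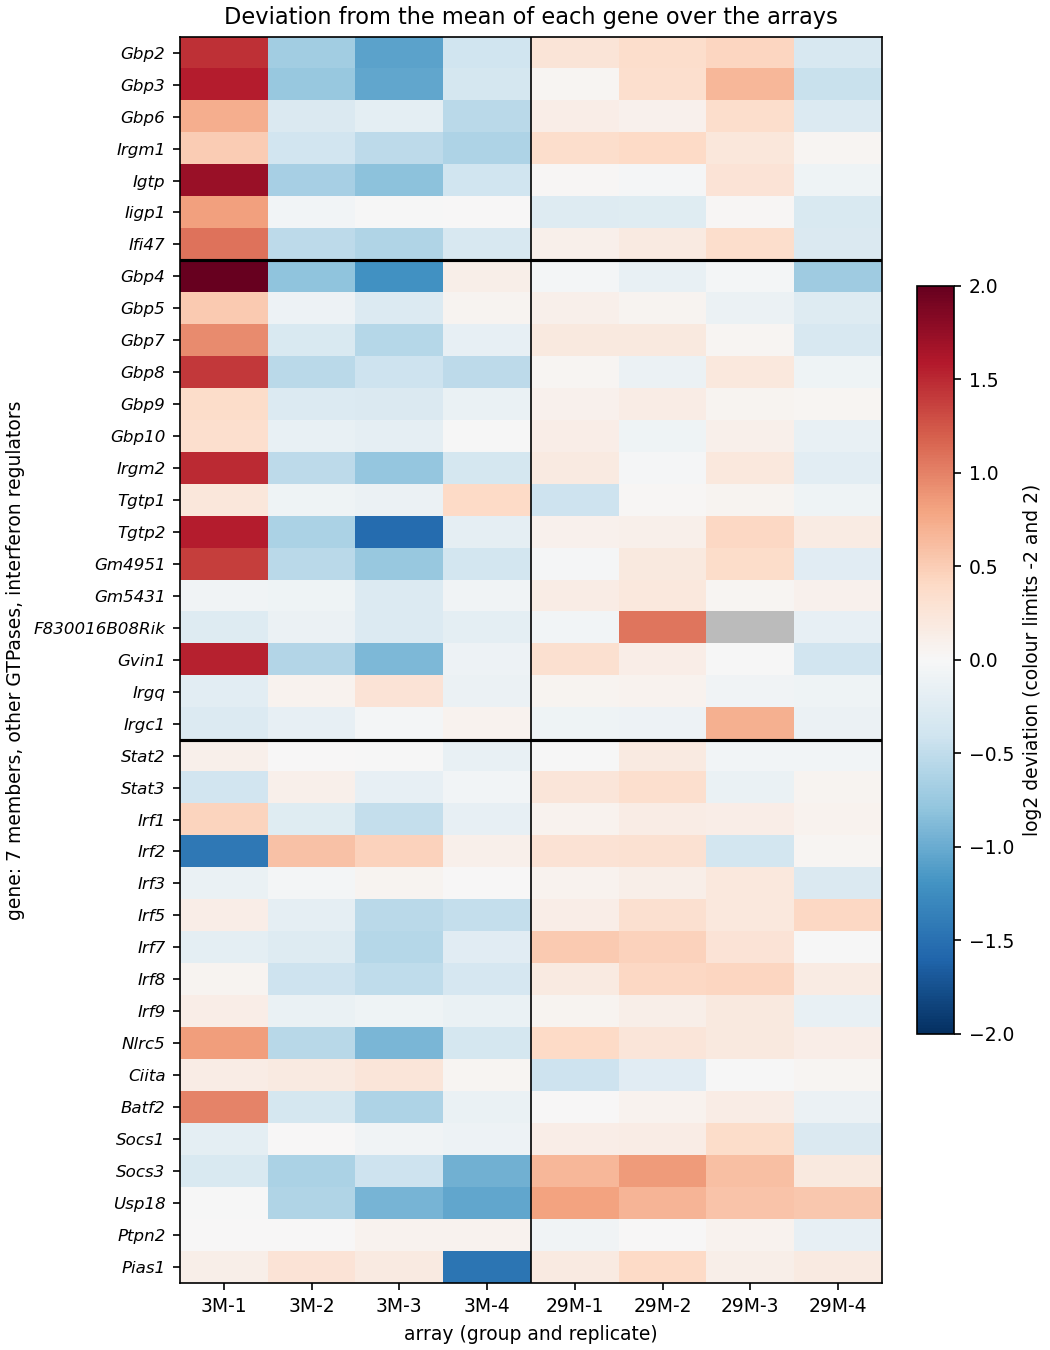
Deviation of each gene from its mean over the arrays (colour, log2, limits -2 and 2), by array. Drawn are the 7 GTPases, 15 other listed GTPases that were well above background on at least 1 array and 17 regulators of interferon signalling. The vertical line parts 3M from 29M and a missing value is grey. The column of 3M-1 is red for all 7 GTPases. The regulators called with all arrays, *Usp18*, *Socs3*, *Irf7* and *Irf8*, are higher in every 29M column than in 3M-1. The regulators *Irf1*, *Nlrc5* and *Batf2* are highest in 3M-1, and *Irf2* is lowest there.

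Of 21 other genes that interferon-gamma induces, 2 were called higher in 29M and none lower. *Cxcl10*, a chemokine for T cells, rose by 1.11 ± 0.22 (limma adjusted p = 0.0431) from 8.51 to 9.43 on the young arrays to 9.82 to 10.29 on the old ones. *H2-D1*, an MHC class I heavy chain, rose by 0.78 ± 0.20 (limma adjusted p = 0.0945). Array 3M-1 was the highest array for 6 of the 21, and without it 9 were called higher, among them the immunoproteasome subunits *Psmb8* and *Psmb9* and the MHC class I gene *H2-K1*, with changes of 1.03, 0.90 and 1.02. Of the 9 measured genes of caspase-11 and the inflammasomes, *Casp1*, the protease that matures interleukin-1 beta, was called (0.97 ± 0.22, limma adjusted p = 0.0704), and 3 were called without 3M-1 (*Casp1*, *Casp4*, which encodes caspase-11, and *Gsdmd*). Of the 13 genes of the ATG conjugation machinery and its partners, through which these GTPases are directed to vacuoles, none was called, and 1 (*Trim21*, a ubiquitin ligase) was called without 3M-1. None of the 5 prenylation genes, whose enzymes lipidate several GBPs, was called in either fit. None of the genes in these 4 lists was called lower. The shares of all named genes called higher were 1.81% with all arrays and 2.95% without 3M-1.

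In a bulk sample, fewer cells of a type and less RNA per cell cannot be told apart, so marker lists are given beside the GTPases. Of 12 microglia markers, 3 were called higher in 29M, where 1.81% of all named genes were. The summed linear intensity of the 12 was 238583 to 260127 on the young and 264372 to 297777 on the old arrays. On 3M-1 that sum was 253112, inside the young range, but 42.4% of it came from the *Itgam* probe. Marker by marker, 9 of the 12 exceeded the mean of the other young arrays on 3M-1, with a median excess of 0.23, and 2 were the highest of all 8 arrays there, *Aif1* (excess 1.22) and *Fcrls* (0.74). Of 12 T and NK cell markers, 3 were called higher (*Cd3d*, *Cd8a* and *Cd2*), and 1 was above background on no array. Only 5 of the 12 had a change above 0 with age. The median change was -0.03 and the lowest -0.43. The sum of the T and NK cell markers was lowest among the young arrays on 3M-1 (27889 in a range of 27889 to 30232, against 26008 to 32735 on the old arrays). On 3M-1, 82.9% of it came from *Cd4* and *Nkg7*, which were both a little lower there. Most T and NK cell markers went the opposite way from that sum: 9 of the 12 exceeded the mean of the other young arrays on 3M-1, with a median excess of 0.12, and 3 were the highest of all arrays there (*Gzma*, *Gzmb* and *Ncr1*, with excesses of 0.48, 0.43 and 0.27, of which *Ncr1* is the marker above background on no array). Of 4 B cell markers, 1 (*Cd79b*, at 9.17 against 7.37 to 8.06 on the other arrays) was highest on 3M-1, and the sum was 951 there, the top of the young range of 511 to 951, against 489 to 636 on the old arrays. For endothelial cells, 1 of 8 markers was highest on 3M-1 and the sum was at the top of the young range (98745 of 76915 to 98745), with 85509 to 94209 on the old arrays, but *Ly6c1* alone gave 44.3% of it on 3M-1. There 6 of the 8 exceeded the mean of the other young arrays, with a median excess of 0.13, while *Kdr* was lower by a little (-0.20) and *Cdh5*, the cadherin of endothelial junctions, was far lower, at 7.27 against a mean of 9.24. For red blood cells the sum was 309167 on 3M-1, in a young range of 200358 to 309362 and against 174483 to 254827 on the old arrays. All 3 measured red blood cell genes were well above background on every array, and 2 of them were highest on 3M-1. Of the 8 astrocyte markers 1 was highest on 3M-1, and none of the 6 oligodendrocyte, 5 choroid plexus and 5 meningeal markers was. *Gfap*, the intermediate filament of astrocytes, was the only gene called in these 4 lists. On 3M-1, 5 of the 8 astrocyte markers exceeded the mean of the other young arrays, but *Sox9* was far lower, at 10.41 against a mean of 11.91. Of the 6 oligodendrocyte markers 3 exceeded that mean, and *Mog* had an excess of -0.54. Of 10 markers of hippocampal neurons, 2 were highest on 3M-1 and 3 exceeded that mean, with a median excess of -0.17. The part of any of these cell types in the GTPase values was not tested.

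The 8 genes whose values over the 8 arrays were most like the mean profile of the 7 GTPases, among 15901 genes well above background, are given as a description. They were *Cxcr3*, the receptor of *Cxcl10* on T cells (Pearson r = 0.99), *Slc39a8*, a zinc and manganese transporter (0.99), *Dera* (0.99), *Mfsd14b* (0.98), *Rac2*, a small GTPase of blood cells (0.98), *Arhgdib*, an inhibitor of small GTPases in blood cells (0.98), *Batf2*, an interferon-induced transcription factor (0.97), and *Arhgef26* (0.97). Over deviations from the group means r was 0.98 to 0.99. All points share arrays and scaling, and 3M-1 was the highest array for all 8 genes, for example for *Cxcr3* with 8.22 against 6.52 to 7.41 and for *Rac2* with 11.47 against 9.23 to 10.004. None of the 8 was called between ages.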

How the data were processed

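For each of the 8 samples the authors deposited 1-colour scanner intensities, which per the file headers came from Agilent Feature Extraction 10.7.3.1 and were not normalized between arrays. The headers differ from the study's methods in software version and array design and were followed here. The deposited table of the series held local background, mostly of arrays other than those its columns name, and was not used.

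Control and outlier spots were dropped, median spot intensities were variance-stabilised (least trimmed squares quantile 0.9, 7 iterations, written in R 4.3.3 after the method the study names), spots of a probe were averaged, and limma 3.58.1 was fitted over all 39408 probes with at least 3 usable arrays per group, adjusting by Benjamini-Hochberg. Other settings, each array left out among them, were tried. Of all probes, 66.1% were named through RefSeq accessions. On simulated data 91.5% of 200 changed probes among 39098 were recovered in this comparison (84% at a log2 change of 1), and 8.04% of calls were false. The simulated noise was drawn independently for each spot, with no shift of an array shared by genes. The recovered share therefore does not give the chance of calling a change in the 7 GTPases, whose probes had an SE of 0.19 to 0.51. The number of arrays limits the precision.

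Members and gene lists were chosen with earlier results of these data known. Named genes were all members with every probe, the called genes of each list, *Ifng* and *Ifnb1*, and the 8 genes most like the members' profile. Genes named outside that rule (*Gbp4*, *Gbp8*, *Irgm2*, *Irgq*, *Gm4951*, *Gm5431*, *Tgtp1*, *Tgtp2*, *Irf1*, *Irf2*, *Alb*, the markers, and those called only without 3M-1) were chosen after their values were seen. The values of 1 gene of the list of regulators are not reported here.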

Additional observations from a re-analysis of the deposited data

Results flagged for a closer look

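In groups of 4 arrays, the gap between the most extreme array and its nearest neighbour was divided by the range of the group and held against Dixon's critical value for 4 values at the 95% level. Of 20 groups examined (10 probes at 2 ages), 4 exceeded it, where chance gives about 1 in 20 for independent groups. These groups are not independent, because the probes were read on the same arrays and some belong to the same gene. The 4 are therefore not 4 separate pieces of evidence. In 3M, array 3M-1 stood apart for *Igtp* (0.834), for the brighter probe of *Iigp1* (0.918) and for *Ifi47* (0.836). In 29M, array 29M-3 stood apart for the brighter probe of *Iigp1* (0.839), at 11.04 against 10.71 to 10.76 on the other old arrays.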

How the results depend on the processing

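The count of 0 called GTPases among the 7 was also obtained under the 3 other scalings, with outlier spots kept, with dim probes removed, with slide as a fixed or random block, with an intensity trend, at an adjusted p under 0.05 and with the brightest probe only; array weights gave 2 (*Gbp6* and *Irgm1*), and leaving out 1 array gave 0 to 5, where the 5 came without 3M-1. For the other listed GTPases, leaving out 1 array gave 0 to 4 called genes. Leaving out 3M-1 was an alternative for the lists that was chosen after seeing the data. In that fit the called genes were 9 for interferon-gamma targets, 1 for ATG genes and 3 for inflammasome genes. Over all probes, 476 higher and 296 lower calls became 275 and 159 with a replicate block, 788 and 570 with array weights, 306 and 181 at an adjusted p under 0.05, and 250 to 792 and 131 to 595 with 1 array left out. The replicate numbers showed no clear pairing of the samples: the correlation of deviations between arrays of the same number was -0.26, 0.22, -0.25 and 0.08. Number 4 matched its own number best, and number 2 nearly did (0.22 against a best of 0.23). These correlations cannot exclude a pairing. The replicate block called 0 of the 7 genes. Changes of sign concerned values that passed no test. *Igtp* went to -0.19 with slide as a fixed block and ran from -0.17 to 0.68 with 1 array left out. With 1 array left out, *Gbp3* ran from -0.000896 (without 3M-3) to 0.87, the brighter probe of *Gbp6* from -0.00434 (without 3M-4) to 0.41, and the dimmer probe of *Iigp1* from -0.54 to 0.15, the highest value of each coming without 3M-1. The cause of these shifts was not tested. Scaling moved the median of all probes by at most 0.03. The excess of 3M-1 under the other scalings was also an alternative chosen after seeing the data.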
